A study of Rattus norvegicus with 12 samples.

Results

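NRK-52E is a line of rat kidney epithelial cells that serves as a model of the renal tubule, and its response to cisplatin was described here across genes. The comparison took the 3 libraries labelled cisplatin at 40 µM and the 3 labelled control, which the labels' protocol calls vehicle, from a series of 12 RNA-seq libraries. All 6 came from the same line, with no genetic change named in the labels, grown in DMEM with 5% FBS. Per the labels' protocol the drug or vehicle was given at 50% confluence for 6 h and followed by a rinse and 24 h in fresh medium. The series design text instead gives 24 h of treatment, and which time applies to the sequenced cells is not settled. The other 6 libraries came from NRK-49F, a rat kidney fibroblast line, and only the 3 grown in medium from untreated NRK-52E cells are used below, as a reference for levels. Of 21698 genes in the deposited count table, 12508 had enough counts in the 6 NRK-52E libraries to be tested.

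Cisplatin is a platinum drug that binds DNA and links neighbouring bases, on one strand or across both. Such lesions block replication forks and stall RNA polymerase, and they are removed by excision and recombination repair. Tubular cells of the kidney take the drug up from the blood, and injury of these cells limits its clinical use. Damage of this kind is known to activate p53, to arrest the cell cycle and, where it is severe, to start apoptosis.

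Total counts ranged from 11339313 to 12468005 in the vehicle libraries and from 9684887 to 11580499 in the cisplatin libraries. Levels are in CPM, counts scaled to a standard library total, and 3 counts in a library equal 0.241 to 0.31 CPM at these depths. Higher and lower are therefore relative to the other genes of a library, and no measure of RNA per cell was used here. Whether replicate libraries stem from separate cultures is not stated in the labels. Each p-value therefore reflects only the spread among the libraries at hand, and that spread may be technical. The table lists genes by Ensembl identifier, and 0 of its 21698 identifiers were paired with a symbol by the gene table used here. Genes are therefore described by classes of level and size of change. The line was not checked against epithelial marker genes, and pathways such as the p53 response were not analysed here.

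Most genes differed between the groups, and the largest changes were more often increases, mainly among genes of low level. edgeR's quasi-likelihood test with Benjamini-Hochberg adjustment called 9536 of the 12508 genes (76.2%) at an adjusted p under 0.05. Against a 1.5-fold change 3883 genes passed. As separate cultures are not stated, a difference between cultures cannot be told apart from an effect of the drug. With cisplatin 4837 genes (38.7%) were higher and 4699 (37.6%) were lower. The median log2 fold change over all genes tested was 0.01, and the middle of the distribution was close to symmetric, with quartiles of -0.43 and 0.51. Its tails were not: the 5th percentile was -1.23 and the 95th percentile 2.63. Increases of at least 2-fold were called for 1822 genes (14.6%) and decreases of that size for 973 (7.78%). This excess lay mainly in genes with a mean under 10 CPM over the 6 libraries. At 1 to 10 CPM there were 888 such increases and 318 decreases. Among the 9138 genes of 10 CPM or more there were 689 and 629. The near-even split of calls and the median depend in part on edgeR's TMM factors. These adjust library totals so that the bulk of genes lies near no change. With library size as the only scaling, 5168 genes were higher and 4409 lower, with a median log2 fold change of 0.05.

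The calls rested on groups of libraries that mostly did not overlap. All 3 cisplatin libraries lay above all 3 vehicle libraries in CPM for 4643 of the 4837 genes called higher, and below them for 4561 of the 4699 called lower, together 9204 genes or 73.6% of those tested. Over all genes tested, with or without a call, the groups did not overlap for 39.2% in the upward and 38.5% in the downward direction. Among the 2972 genes that were not called, 2453 had an estimated change of less than 1.2-fold. The largest estimate in this group was 0.98 on the log2 scale, so no gene estimated to change by 2-fold or more was left uncalled.

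**Figure D1:**
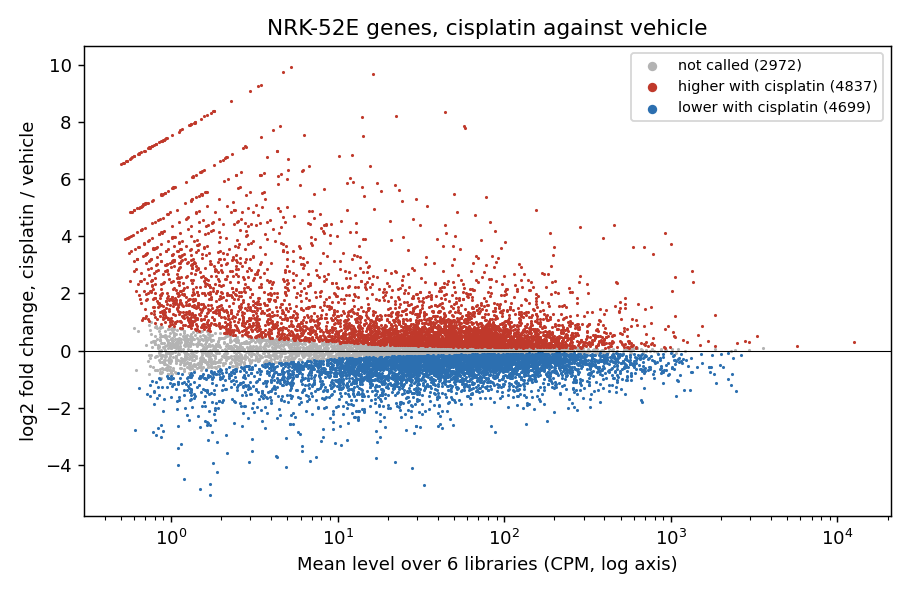
Each point is a gene tested in NRK-52E, with its mean level over the 6 libraries in CPM on a log axis and its log2 fold change, cisplatin over vehicle, as fitted by edgeR. Points above 0 extend much further than points below it at low levels, and the diagonal rows of points at the upper left are genes with 0 or a few vehicle counts, whose fitted values depend on edgeR's prior count.

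The form of the response differed between classes of gene level. The library total was adjusted by edgeR's TMM factor for these levels, and genes were placed by their mean over the 6 libraries. That mean includes the response. A gene near 0 with vehicle can enter the class of 1 to 10 CPM only through its rise. How far this set the excess of increases and the upper tail at low level was not tested. In the class of 1 to 10 CPM, with 2948 genes, 1255 were higher (42.6%) and 689 lower (23.4%), and the median log2 fold change was 0.26. At 10 to 100 CPM, with 6619 genes, 2446 were higher (37.0%) and 2726 lower (41.2%), with a median of -0.04. With library size as the only scaling this order turned, to 2645 higher and 2546 lower with a median of 0.01. At 100 to 1000 CPM, 863 of 2437 genes were higher (35.4%) and 1204 lower (49.4%), with a median of -0.09. Among the 82 genes of 1000 CPM or more, 23 were higher (28.0%) and 49 lower (59.8%), with a median of -0.18. The share of genes called higher thus went down, and the share called lower went up, at each step of this mean level, under both scalings.

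The upper tail narrowed from the lowest of these classes to the middle ones. The 95th percentile of the log2 fold change was 4.43 at 1 to 10 CPM, 1.33 at 10 to 100 CPM and 1.19 at 100 to 1000 CPM. The 5th percentile changed less, from -1.53 to -1.17 and -1.04 over the same classes. Among the 82 genes of 1000 CPM or more the tails were wider again, with a 95th percentile of 2.03 and a 5th of -1.20. Precision differed between the classes as well, since the median standard error of the log2 fold change was 0.24 at 1 to 10 CPM, 0.08 at 10 to 100 CPM and 0.05 at 100 to 1000 CPM. Low genes needed larger changes for a call. The 10th percentile of the absolute log2 fold change among called genes was 0.53 at 1 to 10 CPM and 0.16 at 100 to 1000 CPM. The 422 tested genes under 1 CPM passed the filter more easily when one group was high, so their 250 increases and 31 decreases were partly set by the filter.

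More genes of low level were present after cisplatin, whereas the number of genes at 10 CPM or more differed little. Genes at 1 CPM or more numbered 11546, 11516 and 11539 in the vehicle libraries and 12320, 12403 and 12502 in the cisplatin libraries. Every cisplatin library lay above every vehicle library, and the means differed by 875 genes. At 10 CPM or more the numbers were 8982, 8999 and 9004 with vehicle and 8995, 9005 and 8981 with cisplatin. These ranges overlapped and the difference was -1.33 genes, although with library size as the only scaling it was 60.3 genes. At 100 CPM or more the numbers were 2479, 2498 and 2481 with vehicle and 2520, 2520 and 2522 with cisplatin, which did not overlap and differed by 34.7 genes in the mean, or by 114 genes with library size as the only scaling. In an exact two-sided permutation test p was 0.1 at 1 CPM and at 100 CPM, the smallest value that 3 libraries against 3 allow, and p = 0.9 at 10 CPM. Over the 9 values per library compared in this way, the Benjamini-Hochberg adjusted values were 0.113 where p was 0.1 and 0.9 at 10 CPM.

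**Figure D2:**
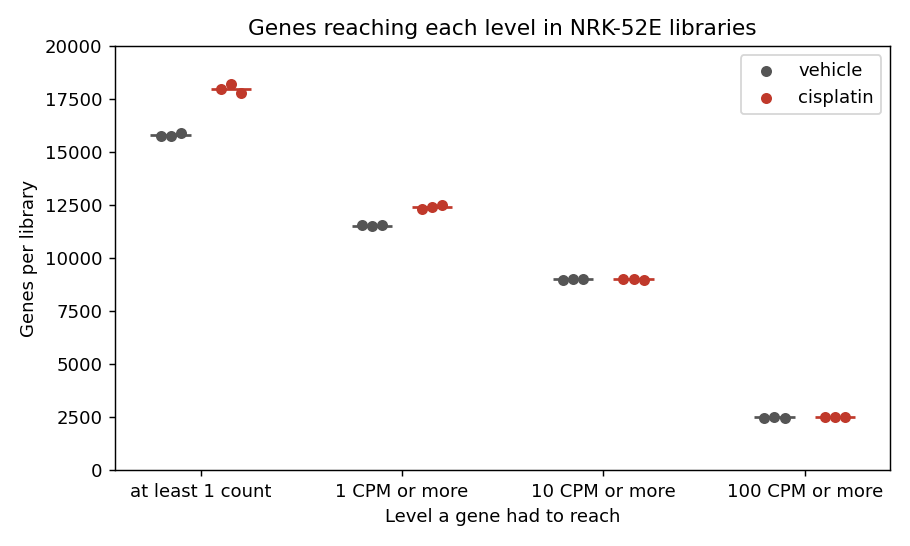
Points are the numbers of genes per NRK-52E library that had at least 1 count or reached 1, 10 or 100 CPM, with the mean of each group as a line. Cisplatin libraries lie above vehicle libraries for at least 1 count and for 1 CPM, while the points at 10 CPM coincide at about 8981 to 9005 genes.

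Genes seen in one group only were more often genes gained with cisplatin, above all among genes with counts in all 3 libraries of a group. The 3 vehicle libraries together held 0 counts of 4052 genes. Of these, 3254 had counts in cisplatin libraries, 1649 in 1 library, 816 in 2 and 789 in all 3. The reverse pattern, 0 counts over the cisplatin libraries, held for 1464 genes, of which 666 had vehicle counts, 514 in 1 library, 114 in 2 and 38 in all 3. The vehicle group had the greater depth, with 35541458 counts in total against 32701228. With every library thinned to the smallest total, the numbers seen in all 3 libraries of one group and in none of the other were 807 gained and 38.1 lost, as means over 20 draws. With a library left out, which makes the condition easier to meet, they were 996 to 1083 gained and 60 to 94 lost.

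The 789 gained genes were of low level. Their counts over the 3 cisplatin libraries ran from 3 to 348, with a median of 9, and 62 of them had enough counts to be tested. In NRK-49F grown in untreated medium 536 of the 789 (67.9%) had 0 counts as well, and 43 were at 1 CPM or more. Over all 4052 genes with 0 vehicle counts, 3001 (74.1%) had 0 counts in those NRK-49F libraries and 146 were at 1 CPM or more.

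The 2 tested genes with the largest fitted increases, taken by a rule on fold change, adjusted p, level and overlap, both came from the genes with 0 vehicle counts. ENSRNOG00000046643 had 0 counts in each vehicle library and 92, 142 and 114 counts in the cisplatin libraries, which equal 7.82, 12.2 and 11.6 CPM. With 3 counts taken as the upper limit for the pooled vehicle group, its pooled level was at least 122-fold higher with cisplatin (edgeR adjusted p = 1.5e-17). ENSRNOG00000001869 had 0 counts in each vehicle library and 85, 110 and 112 counts with cisplatin, or 7.22, 9.47 and 11.4 CPM. Against the same limit it was at least 108-fold higher (edgeR adjusted p = 4.63e-17). Neither gene's groups overlapped, as the rule required, and cisplatin replicate 1 was the lowest of the 3 for both. In NRK-49F in untreated medium the first was at 1.49, 2.5 and 2.1 CPM and the second at 0.165, 0.192 and 0.438 CPM.

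The 2 largest decreases under this rule were of genes at a moderate level with vehicle. ENSRNOG00000062503 was at 63.3, 64.2 and 64.6 CPM with vehicle and at 2.8, 2.93 and 1.53 CPM with cisplatin, a fall of 26.4-fold in the mean. The fitted log2 fold change was -4.69 ± 0.12 (SE, edgeR adjusted p = 4.41e-28). ENSRNOG00000027569 was at 50.0, 54.3 and 54.3 CPM with vehicle and at 3.14, 3.1 and 2.85 CPM with cisplatin, a fall of 17.4-fold in the mean. The fitted log2 fold change was -4.11 ± 0.11 (SE, edgeR adjusted p = 3.65e-27). For both genes the groups did not overlap, as the rule required. The cisplatin values of ENSRNOG00000062503 varied by 0.775 CPM (SD, n = 3), with replicate 3 the lowest. In NRK-49F in untreated medium ENSRNOG00000062503 was at 70.4, 74.4 and 66.7 CPM, and ENSRNOG00000027569 at 28.0, 25.5 and 27.4 CPM. The same rule, without its limit of 2 genes a side, was met by 3982 genes that were higher and 4414 that were lower.

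**Figure D3:**
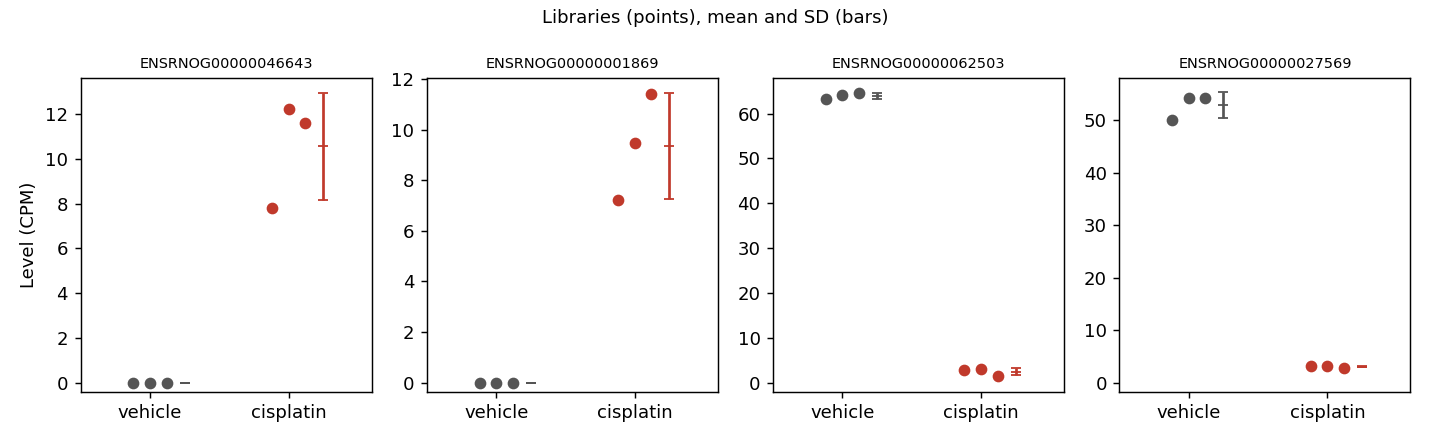
Points are the levels in CPM of the 4 genes in each NRK-52E library, and bars beside them give the mean and SD of the 3 libraries of a group. The first 2 genes are at 0 with vehicle, and the other 2 fall to 1.53 to 3.14 CPM with cisplatin.

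The response was then set against the level of each gene in NRK-49F in untreated medium, a measure from libraries that the NRK-52E test did not use. The NRK-52E level it was matched to is the mean over the vehicle and cisplatin libraries, which includes the response. Genes of like level in both lines by this measure changed least. A large change can move a gene out of the class of its vehicle level, so this order is partly set by how the classes were built. Among NRK-52E genes of 10 to 100 CPM, the 4796 that were also at 10 to 100 CPM in NRK-49F had a median absolute log2 fold change of 0.37. The 115 that were under 0.1 CPM in NRK-49F had a median of 1.17, at a median standard error of 0.10 against 0.07. Of those 115 genes 43 were higher and 58 lower with cisplatin, including 31 increases and 31 decreases of at least 2-fold. The median over them was -0.33. At the other end, 399 genes of 100 CPM or more in NRK-49F comprised 205 that were higher (51.4%) and 134 that were lower (33.6%), with a median of 0.17.

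At 1 to 10 CPM in NRK-52E the genes with unlike levels in the lines were more often higher than lower with cisplatin. This NRK-52E level includes the cisplatin libraries. A gene barely detected with vehicle and in NRK-49F that rose with cisplatin can thus enter as a gene of unlike levels. The excess of increases is partly set by this, and how far was not tested. Of 473 genes under 0.1 CPM in NRK-49F, 279 were higher (59.0%) and 93 lower (19.7%), with a median log2 fold change of 1.18. Of 1339 genes at 1 to 10 CPM in both lines, 400 were higher (29.9%) and 378 lower (28.2%), with a median of 0.02. Genes more abundant in the fibroblast line were also more often higher than lower. Of 304 genes at 10 to 100 CPM in NRK-49F 139 were higher (45.7%) and 79 lower, with a median of 0.28. This was close to the whole class of 1 to 10 CPM in NRK-52E, with 42.6% higher, 23.4% lower and a median of 0.26. Of 42 genes at 100 CPM or more in NRK-49F 26 were higher (61.9%) and 8 lower. These classes are described without a test. The median standard error was 0.34 for genes under 0.1 CPM in NRK-49F and 0.19 for those at 1 to 10 CPM, so the noise of the estimates differed between them.

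**Figure D4:**
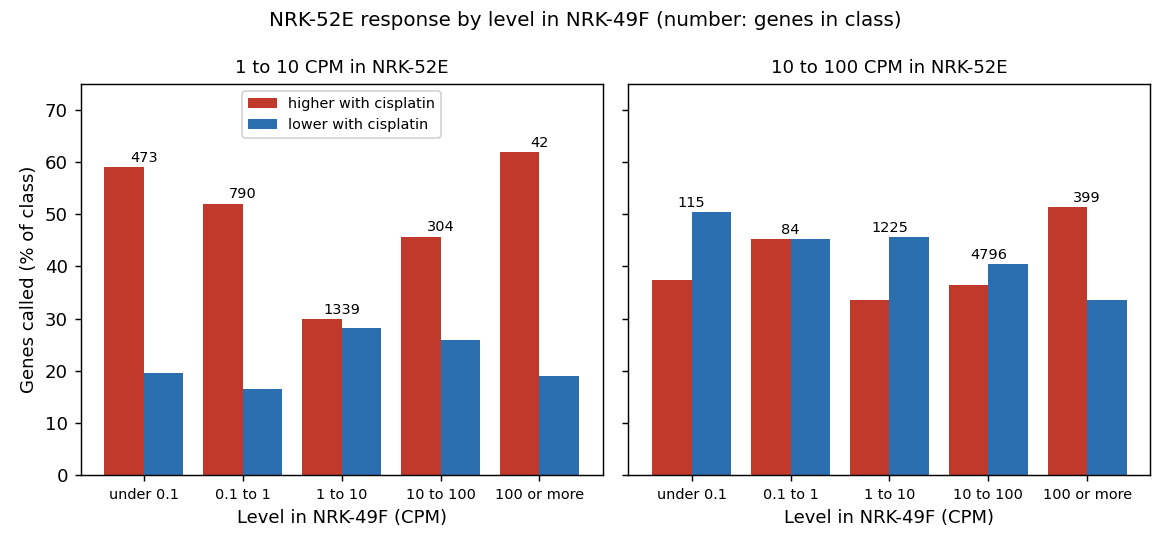
Bars give the percentage of genes called higher or lower with cisplatin in NRK-52E, by the gene's level in NRK-49F in untreated medium, for genes of 1 to 10 CPM (left) and 10 to 100 CPM (right) in NRK-52E. NRK-52E levels are means over the vehicle and cisplatin libraries. The number over each pair of bars is the number of genes in the class. On the left the bars for higher genes are lowest (29.9%) at 1 to 10 CPM in NRK-49F.

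In terms of CPM, the change was not confined to a few genes. Summed over tested genes, 158429 CPM were gained by 6302 genes and 188972 CPM were lost by 6206 genes between the group means, called or not. The 10 genes with the largest gains held 10.4% of the gain and the 10 with the largest losses held 7.12% of the loss. For the 100 largest these shares were 33.0% and 27.0%. To reach 50% took 300 genes for the gain and 364 for the loss. The excess of loss over gain is set by the TMM factors: with library size as the only scaling the sums were 171837 CPM gained and 172775 CPM lost, and 50% took 327 and 340 genes. These sets were ranked by their own change and are given as a description.

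The counts were shared among more genes after cisplatin, although the 10 most abundant genes also held more. To reach 50% of all counts took 950, 958 and 959 genes in the vehicle libraries and 1046, 1041 and 1035 in the cisplatin libraries, with no overlap (exact two-sided permutation p = 0.1). The 10 most abundant genes held 4.08%, 4.02% and 4.1% of the counts with vehicle and 4.27%, 4.56% and 4.74% with cisplatin, also without overlap (exact two-sided permutation p = 0.1).

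The 3 cisplatin libraries differed from each other more than the vehicle libraries did, while all showed a response of like size. The biological coefficient of variation, edgeR's measure of spread between libraries beyond counting noise, was 3.1% among vehicle and 4.38% among cisplatin libraries. Within the cisplatin group it was 5.63% between replicates 1 and 3, 3.94% between 1 and 2, and 3.29% between 2 and 3. Each cisplatin library was set against the vehicle mean over the 9138 genes of 10 CPM or more. The slope of its log2 change on the mean of the other 2 libraries was 0.96 for replicate 1, 1.00 for replicate 2 and 1.02 for replicate 3. For the 689 genes in this class called at least 2-fold higher, the median log2 change was 1.51, 1.51 and 1.53 in replicates 1, 2 and 3. For the 629 called at least 2-fold lower it was -1.25, -1.31 and -1.34. Replicate 1 thus showed slightly smaller decreases than the other 2, and replicate 3 was the shallowest of the 6 libraries. The slopes and medians share the vehicle libraries and are given without a test. The 689 and 629 genes were chosen by calls from these same libraries, so large medians in each replicate were mostly set by that choice.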

How the data were processed

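RNA-seq was done on stranded TruSeq mRNA libraries, per the labels' protocols. The authors deposited whole-number read counts per Ensembl gene for 12 libraries, with 0 columns left unmapped. The submitters' processing notes list STAR 2.7.10a, featureCounts and Subread. The genome build, the annotation release and how counting used strand are not stated in the sources at hand. Counts of overlapping, antisense and near-identical genes are thus uncertain.

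The 6 NRK-52E libraries were fitted by group with edgeR 4.0.16 in R 4.3.3. The steps were filterByExpr (minimum count 10, total 15), TMM factors (0.983 to 1.016), glmQLFit and glmQLFTest, with Benjamini-Hochberg adjustment at 0.05. NRK-49F levels are CPM by library total. Changes of single libraries used log2(CPM + 0.5). The standard error of a log2 fold change is its size over the square root of F. Exact permutation tests used scipy 1.17.1. Chi-square values per degree of freedom between replicates were 1.71 to 4.12, so no library was counted as a duplicate. Alternatives were library size only, DESeq2 1.42.0, no filter, all 12 libraries, a replicate block, a test against a 1.5-fold change and each library left out.

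Genes named were to be a panel of 30, members of 36 lists, and the most extreme genes with a symbol. As 0 of 21698 identifiers were paired with symbols (GRCr8 RefSeq table), the panel, the lists, 6 marker lists, shares of mitochondrial and ribosomal genes and classes by genomic span were not run. The rule left 2 identifiers a side, with an adjusted p under 0.05, a mean of at least 2 CPM and no overlap between groups. These choices were made with earlier results of these data known. In data simulated for this comparison (11650 genes tested, 50 changed per fold size), 56% of 1.25-fold, 86% of 1.5-fold, 92% of 2-fold and 94% of 4-fold changes were recovered, with 7 false calls. The simulation used vehicle means, a variation of 4% and 200 changed genes, far fewer than were called in the data. Changed genes that failed the filter counted as not recovered. These rates may therefore not hold for the real comparison.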

Additional observations from a re-analysis of the deposited data

How the results depend on the processing

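The numbers of genes called, in all and by direction, stayed within 1.5 times their values under library size only, DESeq2, no filter, all 12 libraries, the replicate block and each library left out. Against a 1.5-fold change 3883 genes passed, 2241 higher and 1642 lower. Without a filter on low counts 3087 genes were called at least 2-fold higher, against 1822, with 20900 genes tested. Leaving out 1 library gave 9166 to 9572 calls, 4660 to 4900 higher, 4506 to 4672 lower, and 1858 to 2032 and 979 to 1073 changes of at least 2-fold up and down. It gave 60 to 94 genes lost with cisplatin, against 38. With library size only, the median at 10 to 100 CPM turned from -0.04 to 0.0062 and the difference in genes at 10 CPM or more from -1.33 to 60.3 (exact two-sided permutation p = 0.1). This scaling moved the median of all genes by 0.04. The named genes kept their direction and call under all 12 alternatives. Deviations of same-numbered libraries had correlations of -0.05, 0.01 and -0.02, and those of differently numbered libraries lay from -0.03 to 0.06. Whether same-numbered libraries shared a culture was not tested. With the replicate block 9382 genes were called. Alternatives for gene lists and for shares of fixed classes were not run, as these needed symbols. Genes below about 0.31 CPM in a library are beyond this depth. The alternatives for class medians, for genes seen in one group only, for genes above a CPM level, for the CPM gained and lost and for the sharing of counts were chosen after seeing the data.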
